A study of Homo sapiens with 16 samples.

Results

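The DNA replication origin and fork genes described here are 46 human genes, found by gene name in both count tables. All 46 were present in each table of 58735 annotated genes, and all 46 passed the filter on low counts in every comparison. They fall into 9 groups by role: 6 origin recognition subunits (ORC1 to ORC6), 3 helicase loading factors (CDC6, CDT1, GMNN), 6 subunits of the MCM2-7 helicase, 8 origin firing genes (DBF4, CDC7, CDC45, GINS1, GINS2, GINS3, GINS4, MCM10), 9 polymerase and primase genes (POLA1, POLA2, PRIM1, PRIM2, POLD1, POLD2, POLD3, POLE, POLE2), 6 clamp and clamp loader genes (PCNA, RFC1 to RFC5), 2 Okazaki fragment joining genes (FEN1, LIG1), 3 single-strand binding subunits (RPA1 to RPA3) and 3 fork protection genes (CLSPN, TIMELESS, TIPIN). Poly(A) RNA sequencing was carried out on 2 established lines of human triple-negative breast cancer, MDA-MB-231 and SUM159PT, both labelled as wild type. Cells of each line received a guide RNA without a target (sgNTS) or one against YES1 (sgYES1), which encodes a SRC-family tyrosine kinase, and were collected after 48 h. There were 4 libraries in each of the 4 groups, 16 in all. The submitters describe the 4 replicates as technical, so every p-value below measures only the spread between these libraries. The guides were given by lipid transfection to whole cultures; the labels do not name the protein acting with them, and no untransfected culture was analysed here.

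Replication starts from origins bound by the origin recognition complex, on which CDC6 and CDT1 load the MCM2-7 ring in G1 phase, a step called licensing; geminin, encoded by GMNN, holds CDT1 back after S phase begins. In S phase the CDC7-DBF4 kinase, CDC45, the GINS complex and MCM10 turn the loaded ring into a moving helicase, and polymerase alpha with primase, polymerase delta, polymerase epsilon, the PCNA clamp and its loader RFC copy the strands behind it. RPA coats the exposed single strands, FEN1 and LIG1 join the Okazaki fragments of the lagging strand, and claspin with the TIMELESS-TIPIN pair holds helicase and polymerases together. Many of these genes are transcribed most in late G1 and S phase under E2F factors. In bulk RNA, fewer cells in S phase and less RNA per cell cannot be told apart.

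Total counts per library were 17156454 to 25124164 for MDA-MB-231 and 14352042 to 20884267 for SUM159PT. YES1 was lower with its guide in both lines, from 109 ± 3.12 to 43.1 ± 1.14 CPM (mean ± SD, n = 4) in MDA-MB-231 and from 92.9 ± 3.78 to 39.4 ± 0.87 CPM in SUM159PT. CPM is the usual unit of counts brought to a common library size, here with edgeR's TMM factors computed within each line. The labelled cell type was checked against marker lists, in CPM of library totals: the luminal marker PGR had no counts in any library, and 7 of 8 mesenchymal markers in MDA-MB-231 (TWIST1 had no counts) and 8 of 8 in SUM159PT reached 1 CPM. The summed level of the mesenchymal list was 5322 to 5873 CPM with sgNTS and 4503 to 4769 CPM with sgYES1 in MDA-MB-231. The summed level of the 10 leukocyte markers was 8.79 to 9.96 CPM with sgNTS and 12.1 to 13.5 CPM with sgYES1 in MDA-MB-231, and at most 2.33 CPM in any SUM159PT library, with CD3E and MS4A1 at 0 counts in all 16. The part of either list in the results below was not tested. Among the sgNTS libraries, 1 in each line stood apart from its group. These were MDA-MB-231 sgNTS replicate 4, which had the lowest share of mitochondrial counts at 2.34%, and SUM159PT sgNTS replicate 2. Results that lead the text are therefore given with and without them. SUM159PT sgYES1 replicate 1 differed from replicates 2 and 4 of its group about as much as SUM159PT sgNTS replicate 2 from its own. In the guide tests every library was also left out singly.

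The replication genes fell in MDA-MB-231 and went both ways in SUM159PT. In MDA-MB-231, 39 of the 46 genes were called lower with the YES1 guide (edgeR quasi-likelihood test, Benjamini-Hochberg adjusted p under 0.05 over all genes tested), none was called higher, and 7 were not called: ORC2, ORC3, ORC4, ORC5, ORC6, GINS3 and POLA2. Their median log2 fold change was -0.25, against 0.01 over all 15427 genes tested. The guide moved much of the transcriptome in this line: 42.8% of all genes tested were called, 22.1% as lower and 20.8% as higher. In SUM159PT, 9 of the 46 were called lower, 11 higher and 26 in neither direction, with a median of -0.02. Over all 14479 genes tested there, 39.4% were called, 19.7% as lower and 19.6% as higher, so the members' shares in SUM159PT lay near the background. The 46 genes together took 0.437% ± 0.00193 of all counts with sgNTS and 0.367% ± 0.00457 with sgYES1 in MDA-MB-231 (mean ± SD, n = 4). In SUM159PT they took 0.488% ± 0.0132 and 0.503% ± 0.00457, and the ranges of the libraries overlapped.

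Crossing the calls of both lines, 10 genes were lower in MDA-MB-231 and higher in SUM159PT: ORC1, CDC6, MCM2, MCM3, MCM4, PCNA, RFC5, FEN1, RPA2 and TIPIN. A further 8 were lower in both: CDT1, CDC7, POLA1, POLD1, POLD2, RFC1, LIG1 and TIMELESS. Another 21 were called lower in MDA-MB-231 and not called in SUM159PT. Of the 13390 genes tested in both lines, 2.48% were lower in MDA-MB-231 and higher in SUM159PT, 8.56% were lower in both, and 12.4% were lower in MDA-MB-231 without a call in SUM159PT. GINS3 was called higher and ORC2 lower in SUM159PT without a call in MDA-MB-231, and ORC3, ORC4, ORC5, ORC6 and POLA2 were called in neither line. In MDA-MB-231 all sgYES1 libraries lay below all sgNTS libraries for 39 genes (20.4% of all genes tested), and above them for none (18.8%). In SUM159PT they lay below for 9 (17.6%) and above for 10 (17.7%). Without MDA-MB-231 sgNTS replicate 4 the count of lower genes in that line was again 39, with ORC6 called and TIPIN not. Without SUM159PT sgNTS replicate 2 there were 9 lower and 12 higher genes, GINS1 being the gene added. Leaving out SUM159PT sgNTS replicate 1 reduced the higher genes from 11 to 6, since MCM2, MCM3, MCM4, RFC5 and TIPIN then had adjusted p-values above 0.05.

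Promoters were read from RefSeq (GRCh38.p14) to show what the genes share upstream of their starts. A promoter entry was matched for 40 of the 46 genes, with 51 start sites; MCM4, MCM5, RPA2, RPA3, GINS4 and POLD3 had none. The 250 bases before each start were searched on both strands for letters of E2F-type sites (TTTGGCGC, TTTCGCGC, TTTCCCGC, TTTGCCGC), CHR-type elements (TTTGAA or, as a variant form, TTCGAA) and the NF-Y box (CCAAT). TTTGGCGC and TTTCGCGC can overlap on opposite strands, as they do in MCM6. An E2F-type match was found in 15 of the 40 genes. Counted by start it was found at 15 of 51, against 2.79% of 35116 promoters of the same length. That share was not matched for base composition. The 15 genes were CDC7, CDT1, GINS2, GMNN, LIG1, MCM3, MCM6, MCM7, ORC3, PCNA, POLA1, POLA2, POLE, RFC3 and TIPIN. The match did not follow the calls one to one: it was present in 13 of 33 matched genes that were lower in MDA-MB-231 and in 2 of 7 that were not called there, and in 4 of 8 matched genes lower in both lines and 3 of 8 lower in MDA-MB-231 and higher in SUM159PT. CHR-type letters were found in MCM6 alone, at 1 of the 51 starts (14.3% of all promoters). CCAAT was found in 24 of the 40 genes, at 28 of the 51 starts (32.0% of all promoters). The windows below, of 80 bases, are from 4 genes with an E2F-type match: MCM6, PCNA and GMNN, whose guide effects differed between the lines, and POLA1, which was lower in both. They are written 5′ to 3′ on the strand of the gene, with the E2F-type letters of either strand in capitals, and lie at chr2:135876486-135876565 (minus strand), chr20:5126638-5126717 (minus), chr6:24775297-24775376 (plus) and chrX:24693745-24693824 (plus).
MCM6: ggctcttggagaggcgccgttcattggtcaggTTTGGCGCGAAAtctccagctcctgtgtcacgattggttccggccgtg
PCNA: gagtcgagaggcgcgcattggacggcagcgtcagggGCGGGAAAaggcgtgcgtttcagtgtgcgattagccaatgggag
GMNN: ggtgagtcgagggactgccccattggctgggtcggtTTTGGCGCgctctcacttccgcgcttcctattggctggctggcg
POLA1: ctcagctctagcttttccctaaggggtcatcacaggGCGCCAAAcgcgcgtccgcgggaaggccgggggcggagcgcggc
For some genes whose window of 80 bases overlaps an annotated exon, only 30 bases around 1 match are shown. Of these, LIG1 and CDT1 were lower in both lines, and MCM3 was lower in MDA-MB-231 and higher in SUM159PT. ORC3 and POLA2 were called in neither. The stretches shown lie at chr19:48170440-48170469 (minus), chr16:88803743-88803772 (plus), chr6:52284898-52284927 (minus), chr6:87590105-87590134 (plus) and chr11:65261898-65261927 (plus).
LIG1: acttcacccctTTTCCCGCcctcctcccat
CDT1: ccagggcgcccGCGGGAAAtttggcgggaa
MCM3: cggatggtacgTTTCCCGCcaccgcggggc
ORC3: ctgcagccgcgagggcgcGCGGGAAAtccc
POLA2: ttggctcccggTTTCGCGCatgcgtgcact
The TTTCCCGC letters thus stood upstream of genes of each of these call patterns. A match is a run of letters and was not measured as a binding site here.

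The origin recognition genes were mostly not called in MDA-MB-231, with ORC1 as the exception. ORC1, the largest subunit and the one whose level changes through the cell cycle, stood at 35.1, 31.9, 35.1 and 38.3 CPM in the MDA-MB-231 sgNTS libraries and at 30.7, 31.7, 28.2 and 28.6 CPM in the sgYES1 libraries, a log2 fold change of -0.24 (SE 0.06, adjusted p = 0.00608). In SUM159PT it stood at 32.1, 37.8, 33.1 and 33.4 CPM with sgNTS and at 43.4, 41.4, 38.5 and 43.3 CPM with sgYES1, a log2 fold change of 0.29 (SE 0.06, adjusted p = 0.00113). The groups did not overlap in either line, but in MDA-MB-231 the second library of each guide nearly met. ORC5, a subunit of the core complex, stood at 24.3, 26.4, 25 and 22.1 CPM against 26.8, 26.1, 25 and 23.9 CPM in MDA-MB-231, where the groups overlapped (log2 0.06, 95% interval -0.08 to 0.20). ORC6, the subunit outside the core ring, stood at 51.2, 51.5, 53.5 and 55.6 CPM with sgNTS and at 54.5, 53.6, 49.8 and 54.8 CPM with sgYES1 in SUM159PT (log2 0.01, 95% interval -0.11 to 0.12). Both intervals left out a change as large as that of ORC1 in the same line. ORC2 fell in SUM159PT (log2 -0.19, adjusted p = 0.0238), a call lost without sgNTS replicate 1 or 4, without sgYES1 replicate 2 or with library totals as the scaling. Its MDA-MB-231 value was -0.11 (adjusted p = 0.0911). The 6 subunits had median log2 fold changes of -0.09 (MDA-MB-231) and -0.01 (SUM159PT).

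All 3 helicase loading factors fell in MDA-MB-231; in SUM159PT CDC6 rose, CDT1 fell and GMNN was not called. GMNN, the CDT1 inhibitor, stood at 56.5, 56.8, 53.0 and 54.3 CPM with sgNTS and at 43.1, 45.1, 46 and 47.4 CPM with sgYES1 in MDA-MB-231 (log2 -0.28, SE 0.05, adjusted p = 0.000214). The groups were well apart. In SUM159PT it read 61.5, 63.3, 62.9 and 67.9 CPM against 68.7, 68.7, 66.7 and 70.0 CPM (log2 0.10, 95% interval -0.01 to 0.20), and the highest control exceeded the lowest sgYES1 library. CDT1, the loading factor that geminin binds, stood at 90.9, 74.3, 82.0 and 84.6 CPM with sgNTS and at 69.8, 67.0, 66.4 and 77.0 CPM with sgYES1 in MDA-MB-231 (log2 -0.24, SE 0.06, adjusted p = 0.0054). One sgYES1 library there was above the lowest control. CDT1 also fell in SUM159PT, by 0.12 on the log2 scale (adjusted p = 0.0299), although 6 of 13 alternative settings, among them library totals as the scaling, put its adjusted p above 0.05. CDC6, the ATPase that works with the origin recognition complex, rose in SUM159PT from 66.9, 78.0, 69.8 and 72.2 CPM to 85.1, 81.4, 81.3 and 83.0 CPM (log2 0.21, SE 0.05, adjusted p = 0.0032), with no overlap. The MDA-MB-231 libraries showed a fall from 106 ± 2.69 to 91.8 ± 3.64 CPM (log2 -0.21, adjusted p = 0.000643).

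The MCM2-7 helicase fell as a whole in MDA-MB-231: all 6 subunits were lower, with a median log2 fold change of -0.36. MCM6 (ENSG00000076003, chr2:135839626-135876426 on hg38, minus strand), whose promoter window is printed above, fell most. It stood at 141, 140, 141 and 137 CPM with sgNTS and at 90.0, 92.0, 90.1 and 92.8 CPM with sgYES1, which is 65.5% of the control level (log2 -0.61, SE 0.03, adjusted p = 8.53e-09). The 2 groups of libraries were tight and far apart. MCM2, at the other end, stood at 128, 130, 135 and 137 CPM with sgNTS and at 125, 118, 123 and 113 CPM with sgYES1 (log2 -0.14, SE 0.04, adjusted p = 0.0117). Its groups came close without overlapping, and library totals as the scaling ended the call (adjusted p = 0.0832). The subunits form a ring with 1 copy of each, yet their changes in MDA-MB-231 were unequal, from -0.14 for MCM2 through -0.29 for MCM5, -0.30 for MCM7, -0.41 for MCM4 and -0.43 for MCM3 to -0.61 for MCM6. The 95% interval of MCM6, -0.68 to -0.54, did not meet that of any other subunit in this line.

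In SUM159PT none of the 6 subunits was lower, and MCM2, MCM3 and MCM4 were called higher. MCM4 stood at 282, 323, 290 and 311 CPM with sgNTS and at 349, 328, 324 and 331 CPM with sgYES1 (log2 0.14, SE 0.04, adjusted p = 0.0139). Every sgYES1 library was above the highest control by a small margin, that control being replicate 2. MCM6 stood at 143, 157, 140 and 146 CPM with sgNTS and at 155, 137, 146 and 152 CPM with sgYES1 in SUM159PT (log2 0.01, 95% interval -0.09 to 0.11), and the groups were interleaved. MCM3 stood at 404, 417, 403 and 414 CPM with sgNTS and at 291, 303, 305 and 314 CPM with sgYES1 in MDA-MB-231, and at 289, 311, 298 and 301 CPM against 322, 317, 320 and 328 CPM in SUM159PT. Its fold change was -0.43 in MDA-MB-231 (adjusted p = 2.01e-07) and 0.10 in SUM159PT (adjusted p = 0.0366), where 6 of 13 alternative settings put the adjusted p above 0.05.

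**Figure D1:**
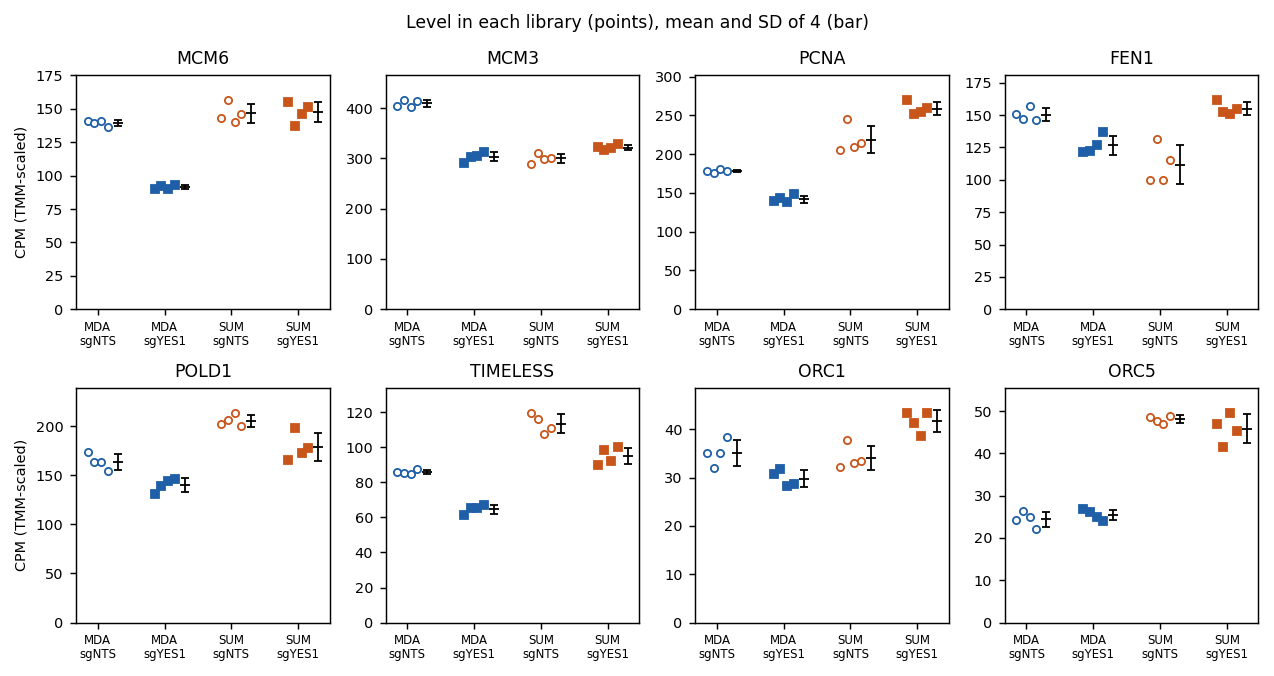
TMM-scaled CPM (vertical axes from 0) of 8 replication genes in each library; circles are sgNTS and squares sgYES1, blue MDA-MB-231 and orange SUM159PT, with mean and SD of 4 beside them. MCM6 drops from about 139 to 91.2 CPM in MDA-MB-231 and stays near 148 in SUM159PT, FEN1 and PCNA move in opposite directions in the lines, and POLD1 and TIMELESS are lower in both.

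Of the 8 origin firing genes, 7 fell in MDA-MB-231, with a median log2 fold change of -0.40. MCM10, which activates the assembled helicase, stood at 75.4, 73.0, 76.2 and 78.9 CPM with sgNTS and at 59.3, 55.4, 56.0 and 54.7 CPM with sgYES1 (log2 -0.43, SE 0.04, adjusted p = 2.3e-06). The gap between the groups was wider than either group. GINS4 and DBF4, a GINS subunit and the regulatory subunit of the CDC7 kinase, fell by 0.51 and 0.47 on the log2 scale (adjusted p = 5.65e-06 and 4.01e-06). CDC45 and GINS2, both parts of the moving helicase, fell by 0.40 and 0.41. CDC7 and GINS1 fell by 0.26 and 0.22. The exception was GINS3, another subunit of the same complex, at 13.8, 13.7, 16.1 and 13.2 CPM with sgNTS and 15.5, 13.8, 13.6 and 14.6 CPM with sgYES1 (log2 0.02, 95% interval -0.15 to 0.19). The 95% interval of GINS3 met that of GINS1 and lay above those of GINS2 and GINS4.

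In SUM159PT the firing genes were mostly not called, and GINS3 was the one that rose. It stood at 20.6, 23.7, 24.2 and 23.4 CPM with sgNTS and at 29.4, 28.1, 28.6 and 30 CPM with sgYES1 (log2 0.34, SE 0.07, adjusted p = 0.000523), without overlap. DBF4 stood at 34.7, 39.5, 37.5 and 38.1 CPM with sgNTS and at 41.3, 33.6, 38.4 and 36.0 CPM with sgYES1, and the groups were interleaved (log2 -0.0019, 95% interval -0.14 to 0.14). CDC7, the kinase subunit itself, fell by 0.16 (adjusted p = 0.0321), a call lost in 6 of 13 alternative settings, among them DESeq2, no filter on low counts and library totals. The 4 GINS genes, whose products form 1 complex, thus had SUM159PT values of 0.15, -0.02, 0.34 and -0.10 in the order GINS1 to GINS4.

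The polymerase and primase genes fell in MDA-MB-231, POLA2 excepted, and in SUM159PT all but POLE had values below 0. In MDA-MB-231, 8 of 9 fell, with a median of -0.23. POLE2, the second subunit of the leading-strand polymerase epsilon, fell most of all 46 genes by fold: from 26.6, 25.8, 24.0 and 24.3 CPM with sgNTS to 15.5, 16.4, 15.4 and 18.1 CPM with sgYES1 (log2 -0.62, SE 0.07, adjusted p = 5.98e-06). The groups were far apart. PRIM1, the catalytic primase subunit, fell by 0.53 (adjusted p = 0.000458), from 13.9 ± 1.5 to 9.56 ± 0.791 CPM. The exception was POLA2, the accessory subunit of polymerase alpha, at 8.36, 7.53, 7.06 and 7.84 CPM against 7.92, 7.39, 7.73 and 9.13 CPM, with overlapping groups (log2 0.07, 95% interval -0.14 to 0.27). Its sgYES1 replicate 4 lay above every control, and without that library the value was -0.0088. POLA2 had the lowest level of the 46 genes, and 35.1% of its exon bases are shared with AP000944.2 on the same strand, so its counts are uncertain.

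In SUM159PT, 3 polymerase genes were called lower, none higher and 6 neither, with a median of -0.16. The shares over all genes tested there were 19.7% lower and 19.6% higher. POLD1, the catalytic subunit of polymerase delta, stood at 202, 206, 213 and 200 CPM with sgNTS and at 166, 199, 173 and 178 CPM with sgYES1 (log2 -0.20, SE 0.05, adjusted p = 0.00248), and sgYES1 replicate 2 lay just under the lowest control. POLD2 and POLA1 fell by 0.16 and 0.21 (adjusted p = 0.00445 and 0.00411). PRIM2, the large primase subunit, stood at 40.2, 36.4, 37.8 and 38.6 CPM with sgNTS and at 37.7, 38.8, 36.6 and 35.5 CPM with sgYES1 (log2 -0.04, 95% interval -0.17 to 0.08), with overlapping groups. POLE, the catalytic subunit of polymerase epsilon, was the single polymerase gene with a value above 0 there, 0.07 (adjusted p = 0.195).

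PCNA and its loader fell together in MDA-MB-231, 6 of 6, with a median of -0.25. PCNA, the sliding clamp that tethers polymerases to DNA, stood at 178, 176, 180 and 178 CPM with sgNTS and at 139, 143, 138 and 148 CPM with sgYES1 (log2 -0.33, SE 0.03, adjusted p = 3.95e-06). The groups were far apart. RFC1, the large loader subunit, stood at 99.1, 102, 103 and 104 CPM with sgNTS and at 93.6, 95.1, 92.1 and 93.6 CPM with sgYES1 (log2 -0.12, SE 0.04, adjusted p = 0.0104), a small but separate shift that library totals as the scaling took above the threshold (adjusted p = 0.0913). RFC2, RFC3, RFC4 and RFC5, the small loader subunits, fell by 0.29, 0.38, 0.20 and 0.20.

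In SUM159PT, 2 of the 6 clamp and loader genes were called higher, 1 lower and 3 neither. These counts lay near the shares over all genes tested there, 19.6% higher and 19.7% lower. PCNA rose from 206, 245, 210 and 214 CPM with sgNTS to 270, 251, 254 and 260 CPM with sgYES1 (log2 0.24, SE 0.05, adjusted p = 0.000426). The control that came nearest was replicate 2, and every sgYES1 library was above it. RFC1 went the other way, from 101 ± 7.09 to 84.4 ± 4.13 CPM (log2 -0.26, adjusted p = 0.000632), while RFC5 rose by 0.21 (adjusted p = 0.0165). The RFC5 call was lost without sgNTS replicate 1. RFC3 stood at 53.9, 52.5, 52.8 and 52.4 CPM with sgNTS and at 60.2, 50.2, 57.7 and 51.9 CPM with sgYES1 (log2 0.06, 95% interval -0.06 to 0.18). Its sgYES1 libraries were scattered on both sides of tight controls.

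FEN1 and LIG1, which act in sequence on Okazaki fragments, both fell in MDA-MB-231 and parted in SUM159PT. LIG1, the ligase, stood at 98.0, 93.3, 88.2 and 85.6 CPM with sgNTS and at 61.7, 66.0, 69.7 and 71.6 CPM with sgYES1 in MDA-MB-231 (log2 -0.44, SE 0.05, adjusted p = 1.79e-05). In SUM159PT it stood at 72.0, 74.1, 71.8 and 72.0 CPM with sgNTS and at 60.0, 62.9, 61.0 and 65.5 CPM with sgYES1 (log2 -0.22, SE 0.05, adjusted p = 0.0013). All sgYES1 libraries were below all controls in both lines. FEN1, the flap nuclease, stood at 151, 147, 157 and 146 CPM with sgNTS and at 121, 122, 127 and 137 CPM with sgYES1 in MDA-MB-231 (log2 -0.25, SE 0.04, adjusted p = 0.000389). In SUM159PT it stood at 100, 132, 100 and 115 CPM with sgNTS and at 162, 152, 151 and 155 CPM with sgYES1 (log2 0.47, SE 0.06, adjusted p = 6.75e-06), the largest rise among the 46 genes. The controls in SUM159PT were spread, with replicate 2 highest, and still lay below every sgYES1 library. Leaving out any 1 library gave FEN1 values of 0.42 to 0.55 in SUM159PT.

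The 3 RPA subunits fell in MDA-MB-231, by 0.29, 0.24 and 0.32 on the log2 scale for RPA1, RPA2 and RPA3. RPA1, the large DNA-binding subunit, stood at 235, 230, 233 and 238 CPM with sgNTS and at 185, 198, 192 and 191 CPM with sgYES1 (SE 0.03, adjusted p = 7.87e-06), a wide gap. RPA3, the smallest subunit, stood at 34.3, 31.0, 32.1 and 28.2 CPM with sgNTS and at 23.1, 24.9, 25 and 27.2 CPM with sgYES1 (SE 0.07, adjusted p = 0.00161), and the nearest libraries of the groups were close. In SUM159PT RPA2 rose from 56.4, 59.6, 53.9 and 57.4 CPM to 69.5, 61.3, 64.2 and 65.7 CPM (log2 0.20, SE 0.05, adjusted p = 0.00576), without overlap. RPA3 stood at 40.1, 49.0, 42.1 and 46.1 CPM with sgNTS and at 42.1, 35.6, 42.0 and 43.3 CPM with sgYES1 there (log2 -0.12, 95% interval -0.27 to 0.03), with overlapping groups. RPA1 had a SUM159PT value of -0.10 (adjusted p = 0.0698), although its groups did not overlap.

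All 3 fork protection genes were called lower in MDA-MB-231. TIMELESS stood at 86.2, 85.1, 85.1 and 87.7 CPM with sgNTS and at 61.2, 65.6, 65.1 and 67.0 CPM with sgYES1 (log2 -0.41, SE 0.04, adjusted p = 1.98e-06), with a wide gap. CLSPN, which encodes claspin, an adaptor in checkpoint signalling to CHEK1, fell by 0.52 (adjusted p = 3.45e-06), from 74.0 ± 5.54 to 51.5 ± 1.73 CPM. TIPIN, the partner of TIMELESS, stood at 22.0, 23.1, 23.2 and 22.0 CPM with sgNTS and at 19.0, 20.5, 20.4 and 21.2 CPM with sgYES1 (log2 -0.15, SE 0.06, adjusted p = 0.0468). The groups were close, and 12 of 13 alternative settings took TIPIN above the threshold in MDA-MB-231, to adjusted p-values of up to 0.147.

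In SUM159PT TIMELESS and TIPIN, whose products bind each other, moved apart. TIMELESS fell from 120, 116, 108 and 111 CPM with sgNTS to 90.0, 98.2, 92.1 and 100 CPM with sgYES1 (log2 -0.26, SE 0.05, adjusted p = 0.000279), without overlap. TIPIN rose by 0.27 (SE 0.09, adjusted p = 0.0196), from 17.6 ± 1.85 to 21.3 ± 2.30 CPM, with overlapping groups. CLSPN stood at 25.6, 31.2, 24.9 and 29.3 CPM with sgNTS and at 30.2, 29.7, 27.3 and 28.2 CPM with sgYES1 (log2 0.05, 95% interval -0.11 to 0.21), all sgYES1 libraries lying within the range of the controls.

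The difference between the lines was then tested as an interaction over all 16 libraries, taking the MDA-MB-231 guide effect away from the SUM159PT one. Of the 46 genes, 28 had a higher value in SUM159PT, none a lower one and 18 were not called, with a median difference of 0.27 on the log2 scale. Over all 16640 genes tested, 24.5% were called, 12.7% as higher and 11.9% as lower. The 4 genes with the smallest p were MCM3 (difference 0.52, SE 0.05, adjusted p = 4.04e-08), MCM6 (0.61, SE 0.06, adjusted p = 7.02e-08), MCM4 (0.54, SE 0.06, adjusted p = 2.3e-07) and PCNA (0.56, SE 0.06, adjusted p = 6.74e-07). FEN1 had the largest difference, 0.70 (SE 0.09, adjusted p = 2.3e-06). Without both MDA-MB-231 sgNTS replicate 4 and SUM159PT sgNTS replicate 2, the number of higher genes was again 28.

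**Figure D2:**
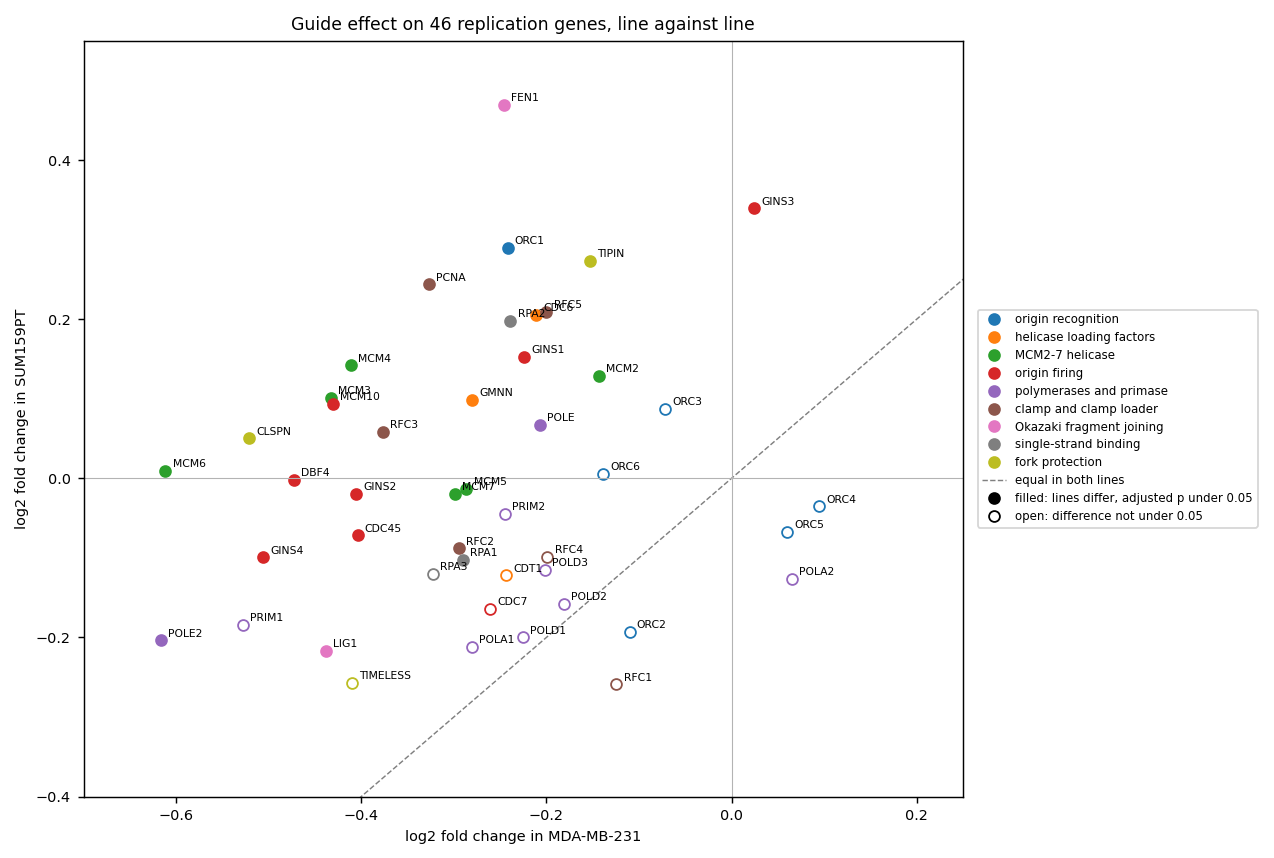
Guide effect in MDA-MB-231 (horizontal axis, log2 fold change) against that in SUM159PT (vertical axis) for the 46 genes, coloured by role; filled points differ between the lines at an adjusted p under 0.05, and the dashed line marks equal effects. The 28 filled points lie above the dashed line; of the 9 polymerase and primase points only POLE and POLE2 are filled.

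By role, the lines differed in nearly every gene of the helicase and its activation and in 2 of 9 polymerase and primase genes. Of all genes tested in this contrast, 24.5% were called, 12.7% as higher. The 2 of 9 polymerase and primase genes and 1 of 6 origin recognition genes lay near those shares. All 6 MCM2-7 subunits differed, with a median difference of 0.40, and 7 of 8 firing genes, with a median of 0.37; CDC7 was the firing gene not called (0.09, 95% interval -0.08 to 0.25). Of the loading factors CDC6 and GMNN differed (0.41 and 0.37), and CDT1 was not called (0.11, 95% interval -0.05 to 0.27). In the clamp group PCNA, RFC2, RFC3 and RFC5 differed, with a group median of 0.30, whereas RFC1 had a value of -0.15 (95% interval -0.28 to -0.01, adjusted p = 0.106). In the polymerase and primase group the median difference was 0.08, and the genes called were POLE (0.26) and POLE2 (0.40). PRIM2 (0.19, adjusted p = 0.0573) lay near the threshold and was called in 12 of 21 alternatives: with DESeq2, and on leaving out MDA-MB-231 sgNTS replicate 3 or 4, MDA-MB-231 sgYES1 replicate 2 or 4, SUM159PT sgNTS replicate 1, 2 or 3, or any SUM159PT sgYES1 library (adjusted p down to 0.0128). PRIM1 (0.33, adjusted p = 0.0909) was called in 3, at 0.41 without MDA-MB-231 sgNTS replicate 1, 0.43 without SUM159PT sgNTS replicate 2 and 0.44 without SUM159PT sgYES1 replicate 2 (adjusted p = 0.0317, 0.0291 and 0.0221). For POLD1 and POLD2, lower in both lines, the 95% intervals of the difference were -0.13 to 0.16 and -0.11 to 0.13. Within origin recognition only ORC1 differed (0.52, adjusted p = 0.000159). FEN1, LIG1, RPA1, RPA2, CLSPN and TIPIN made up the rest of the 28. TIMELESS (0.14, adjusted p = 0.109) was called in 5 alternatives, on leaving out MDA-MB-231 sgYES1 replicate 4, SUM159PT sgNTS replicate 1 or 2, or SUM159PT sgYES1 replicate 1 or 3 (0.19 to 0.21). RPA3 (0.19, adjusted p = 0.200) was called in 2, without SUM159PT sgYES1 replicate 2 (0.29) and without both libraries that stood apart (0.30). The role groups were not tested against each other.

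**Figure D3:**
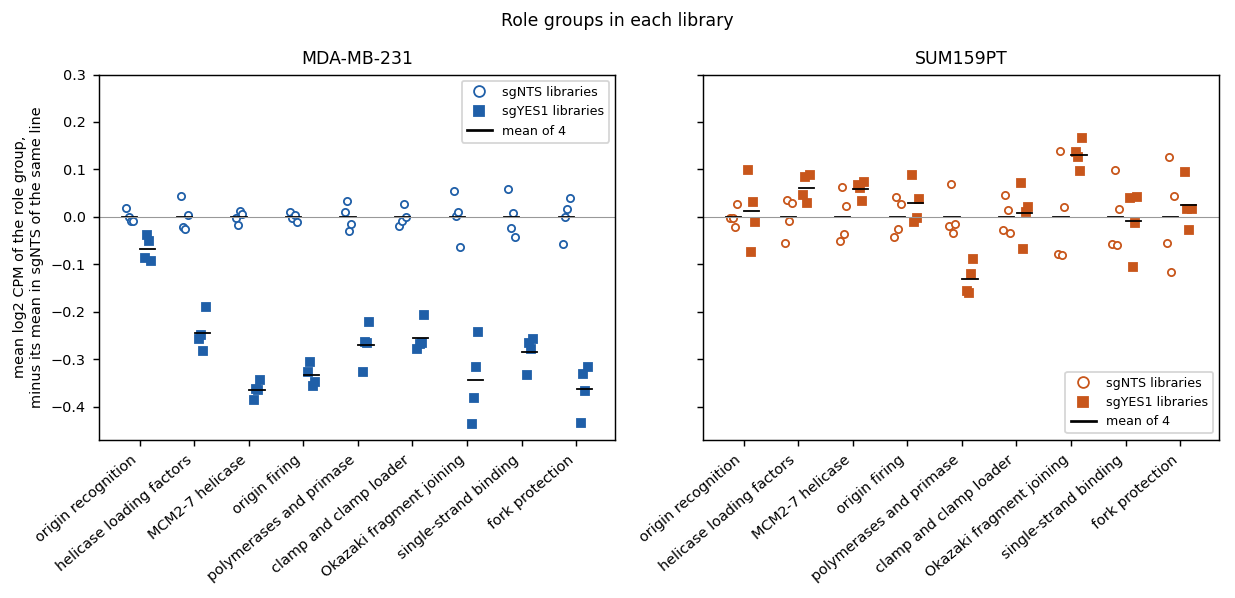
Mean log2 CPM of each role group in each library (vertical axis), minus the mean of the sgNTS libraries of the same line, with 4 libraries per guide and their mean as a bar. In MDA-MB-231 the sgYES1 libraries of every group lie below all controls, from about -0.04 for origin recognition down to -0.44 for Okazaki fragment joining; in SUM159PT only the polymerase and primase libraries, -0.16 to -0.09, lie below all controls.

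The same contrast can be read library by library, as the mean log2 CPM over a role group relative to the controls of the same line. For MCM2-7 the MDA-MB-231 sgYES1 libraries read -0.39, -0.36, -0.37 and -0.34, and the SUM159PT sgYES1 libraries 0.07, 0.06, 0.03 and 0.07. For the polymerase and primase genes the values were -0.33, -0.26, -0.27 and -0.22 in MDA-MB-231 and -0.16, -0.16, -0.12 and -0.09 in SUM159PT. In SUM159PT sgNTS replicate 2 the MCM2-7 genes read 0.06, level with the sgYES1 libraries, while the other controls read -0.05, -0.04 and 0.02. Across the 46 genes the guide effects of the lines were related only loosely, with Pearson's r = 0.15 and Spearman's rho = 0.12 as a description across genes, which are not independent. Over the 13390 genes tested in both lines the same measures were 0.38 and 0.31. For 41 of the 46 genes the lower value was that of MDA-MB-231, as it was for 6753 of those 13390 genes.

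Other genes of the replication machinery, a further list of 46, were read in the same way. In MDA-MB-231, 28 were lower, 3 higher and 15 not called, with a median of -0.22. In SUM159PT, 7 were lower, 9 higher and 30 not called, with a median of -0.04. Over all genes tested, 22.1% were called lower and 20.8% higher in MDA-MB-231, and 19.7% and 19.6% in SUM159PT. The SUM159PT counts of this list thus lay near the background. In MDA-MB-231 the smallest p-values were those of TOP2A (the topoisomerase that untangles sister chromatids; log2 -0.47), ASF1B (a histone chaperone; -0.47), UHRF1 (which keeps DNA methylation behind the fork; -0.43) and CCNA2 (cyclin A2; -0.43). In SUM159PT they were those of CDC25A (the phosphatase that activates CDK2; 0.56), TOP2A (-0.30), CCNE1 (cyclin E1; 0.63) and DTL (an adaptor for the degradation of CDT1; -0.29). In SUM159PT, UHRF1 rose (0.29, adjusted p = 0.000157), while ASF1B and CCNA2 had values of -0.02 and -0.08 (adjusted p = 0.816 and 0.227). In MDA-MB-231, CDC25A and DTL fell (-0.13 and -0.26, adjusted p = 0.0381 and 0.000243), and CCNE1 had a value of -0.16 (adjusted p = 0.0642). The difference between lines was called as higher for 15 of these 46 and as lower for POLD4 alone, a small subunit of polymerase delta (-0.65, adjusted p = 0.00177). The shares over all genes tested were 12.7% higher and 11.9% lower.

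Regulators and mitotic genes moved alongside in MDA-MB-231. Of 13 E2F and RB family genes, 9 were lower and E2F7 higher in MDA-MB-231, and 3 were lower and 3 higher in SUM159PT. The shares over all genes tested were 22.1% lower and 20.8% higher in MDA-MB-231, and 19.7% and 19.6% in SUM159PT. The SUM159PT counts of this family thus lay near the background. E2F1 and E2F2, activators of S-phase genes, fell by 0.47 and 0.65 in MDA-MB-231, and E2F8, a repressor, fell by 0.87. In SUM159PT E2F1 fell by 0.13 (adjusted p = 0.0264), E2F2 had a value of 0.07 (adjusted p = 0.328) and E2F8 rose by 0.27 (adjusted p = 0.0346). All 12 mitotic genes, among them PLK1, BUB1 and CCNB1, fell in MDA-MB-231, with a median of -0.47. In SUM159PT 3 of 12 fell, near the share of 19.7% over all genes tested there. The part of cell-cycle position in the fall of the replication genes was not tested.

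Without the guide against YES1, the lines already differed in these genes. SUM159PT sgNTS libraries were higher than MDA-MB-231 sgNTS libraries for 26 of the 46 genes, lower for 15 and not called for 5, in a contrast that called 81.8% of all genes, 41.3% as lower and 40.5% as higher. Line and count table cannot be told apart in it. MCM2 was 2.68-fold and CDT1 2.45-fold higher in SUM159PT, and CLSPN was 2.58-fold higher in MDA-MB-231 (log2 1.42, 1.30 and -1.37 for SUM159PT over MDA-MB-231). Levels per length were taken from CPM with TMM factors over all 16 libraries. Per kilobase of gene model, POLA2 had the lowest control level in both lines, 1.33 CPM (MDA-MB-231) and 2.28 CPM (SUM159PT). The highest were PCNA at 120 and MCM3 at 111 CPM per kilobase in MDA-MB-231, and MCM7 at 152 and PCNA at 151 in SUM159PT. The subunits of the MCM2-7 ring ranged from MCM5 at 20.6 to MCM3 at 111 in MDA-MB-231 and from MCM5 at 35.6 to MCM7 at 152 in SUM159PT. In the origin recognition complex ORC4 was lowest in both lines, at 3.88 and 3.57 CPM per kilobase. Gene-model length takes in all annotated exons, so these levels are approximate for genes with long unused exons.

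**Figure D4:**
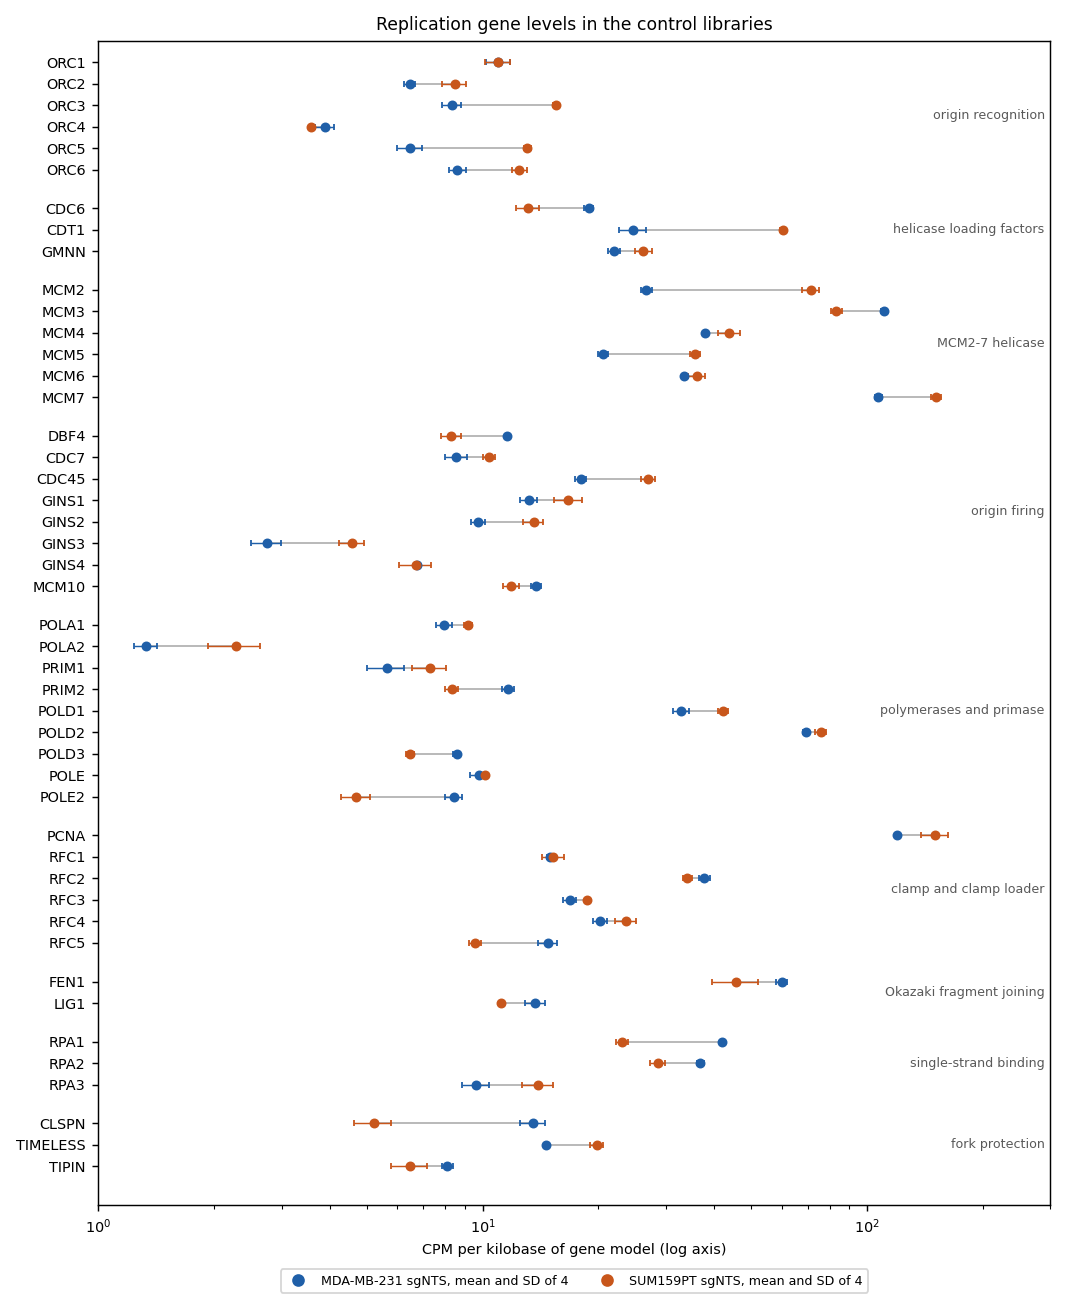
Control (sgNTS) level of the 46 genes in CPM, TMM-scaled over all 16 libraries, per kilobase of gene model (horizontal log axis), mean and SD of 4 libraries in each line, grouped by role. POLA2 lies lowest and PCNA, MCM3 and MCM7 highest; CLSPN is 2.58-fold higher in MDA-MB-231, and MCM2 and CDT1 are over 2-fold higher in SUM159PT.

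Several of these calls rest on a choice of scaling. With library totals in place of TMM, higher genes made up 59.8% of all called genes in MDA-MB-231, against 48.5%, and the replication genes there were 36 lower and 1 higher (ORC4, log2 0.14, adjusted p = 0.042). The sources used here do not give whether the counting used strand or dropped reads shared between genes. Values of genes with overlapping neighbours are therefore uncertain. On the opposite strand, AC023593.1 covers 22.7% of the exon bases of MCM2 and AC009630.2 21.2% of those of GINS4. RPL9P25 lies in 21.0% of those of TIPIN. These neighbours had mean counts of only 5.9, 3.3 and 0. Smaller overlaps involve neighbours with more counts, among them WSB2 (mean count 2595) in 5.72% of RFC5 and NACA (5588) in 1.35% of PRIM1. EIF4A2 (6817) lies in 0.70% of RFC4, and TMEM258 (791) and FADS2 (1213) in 6.70% and 1.98% of FEN1.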

How the data were processed

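Poly(A) RNA from 16 libraries was sequenced; the submitters' processing notes list HISAT2 2.0.5, featureCounts 1.5.0-p3 and the build hg38. The authors deposited whole-number counts per gene for each line (2 tables, 58735 genes each, GENCODE identifiers, no row without a gene). From these, log2 fold changes were fitted with edgeR 4.0.16 in R 4.3.3 (TMM scaling, filterByExpr with a smallest count of 10, quasi-likelihood F-test, two-sided) on all genes of each line, on all 16 libraries for the difference between lines, and for the control contrast. P-values were Benjamini-Hochberg adjusted over all genes tested and called under 0.05. SE and 95% intervals come from the fold change and its F statistic. CPM values are TMM-scaled within each line, CPM per kilobase over all 16 libraries, and marker sums use library totals. The fit was tested on simulated counts. Alternatives were DESeq2 1.42.0, library totals, no filter, a replicate block, 1 fit of 16 libraries and leaving out libraries; leaving out MDA-MB-231 sgNTS replicate 4 together with SUM159PT sgNTS replicate 2 was chosen after seeing the data. For each role and line, the genes with the smallest and the largest p are given in every library, as are the 4 whose difference between lines has the smallest p; of the other replication list, the 4 with the smallest p in each line are named; CCNE2, POLD4 and the E2F and mitotic genes were named after their values were seen. The members and lists were chosen with earlier results of these data known. No batch is named in the labels.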

Additional observations from a re-analysis of the deposited data

Results flagged for a closer look

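Single libraries stood apart from the other 3 of their group for 7 of 188 groups of 4 libraries (47 genes including YES1), where the gap to the nearest library was more than 0.829 of the group's range; chance alone gives about 1 in 20 groups. ORC3 was low in MDA-MB-231 sgNTS replicate 2, at 28.3 CPM against 31.8 CPM in the nearest library, and RPA2 was low in MDA-MB-231 sgYES1 replicate 4, at 62.2 against 64.4 CPM. SUM159PT sgNTS replicate 2 was high for LIG1, at 74.1 against 72.0 CPM, and for RPA1, at 132 against 123 CPM. In the SUM159PT sgYES1 libraries MCM10 was low in replicate 4 at 64.9 CPM, POLA1 high in replicate 1 at 53.9 CPM and RPA3 low in replicate 2 at 35.6 CPM. None of these 7 libraries set the direction of its gene's guide effect.

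The guide effect differed between the lines, as a tested interaction, for 28 genes, given here as the SUM159PT log2 fold change less the MDA-MB-231 one. Among the loading genes the differences were ORC1 0.52, CDC6 0.41 and GMNN 0.37. For the helicase they were MCM2 0.26, MCM3 0.52, MCM4 0.54, MCM5 0.26, MCM6 0.61 and MCM7 0.27. For the firing genes they were DBF4 0.46, CDC45 0.32, GINS1 0.37, GINS2 0.37, GINS3 0.30, GINS4 0.39 and MCM10 0.51. The polymerase genes gave POLE 0.26 and POLE2 0.40, and the clamp group gave PCNA 0.56, RFC2 0.20, RFC3 0.42 and RFC5 0.40. The remaining differences were FEN1 0.70, LIG1 0.21, RPA1 0.18, RPA2 0.43, CLSPN 0.56 and TIPIN 0.41. The weakest calls were GINS3 (adjusted p = 0.0347), LIG1 (0.0358) and RFC2 (0.0309), each lost in some alternatives.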

How the results depend on the processing

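Of the 46 genes, 36 of the 39 called in MDA-MB-231, 12 of the 20 in SUM159PT, 25 of the 28 differences and 38 of the 41 control contrasts were called in every alternative run, and no called value changed sign. Leaving out 1 library at a time gave 38 to 39 lower and 0 higher genes in MDA-MB-231, 7 to 9 lower and 6 to 12 higher in SUM159PT, and 26 to 31 higher differences; the 6 came without SUM159PT sgNTS replicate 1. Library totals gave 36 lower and 1 higher gene in MDA-MB-231 and 6 lower and 12 higher in SUM159PT, DESeq2 38 and 0, then 8 and 11. Same-numbered libraries of a line showed no common deviation (correlations of -0.106 to 0.049, against -0.078 to 0.124 for differently numbered ones). The labels do not say whether the numbers pair the libraries, and these correlations cannot decide it. With a replicate block there were 38 lower genes in MDA-MB-231, 9 lower and 11 higher in SUM159PT and 26 differences. Values near 0 changed sign as follows. With library totals the SUM159PT values of DBF4, GINS2, MCM5 and MCM7 were 0.024, 0.0061, 0.012 and 0.0059, and the control contrast of RFC1 was -0.0043. DESeq2 gave 0.0032 for DBF4 in SUM159PT and -0.0071 for RFC1. With no filter, GINS3 was -0.0032 in MDA-MB-231, ORC6 -0.0017 in SUM159PT and RFC1 -0.016 between controls; ORC6 was -0.0023 in the fit of 16 libraries. Leaving out 1 library, GINS3 ran from -0.014 to 0.082 and POLA2 from -0.0088 to 0.11 in MDA-MB-231. In SUM159PT ORC4 ran from -0.10 to 0.017, ORC6 from -0.011 to 0.035, MCM5 from -0.034 to 0.0050, MCM6 from -0.016 to 0.042, DBF4 from -0.057 to 0.042 and GINS2 from -0.056 to 0.025. The differences of ORC2, POLD1 and POLD2 ran from -0.12 to 0.0066, from -0.015 to 0.084 and from -0.012 to 0.074, and the control contrasts of ORC1, GINS4 and RFC1 from -0.078 to 0.022, from -0.081 to 0.020 and from -0.029 to 0.043. The cause of these changes was not tested. Depth limits POLA2 most, at 7.70 CPM in MDA-MB-231 controls.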

Other observations

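The other replication list can be read by sub-group, beside 22.1% of all genes tested called lower and 20.8% called higher in MDA-MB-231. In MDA-MB-231, 9 of 12 licensing and firing genes outside the 46 were lower (median -0.26), as were 6 of 8 chromatin and topology genes (-0.32) and 8 of 14 genes of S-phase kinases, degradation and checkpoint (-0.17). Of 12 further polymerase, clamp and primer removal genes, 5 were lower and 2 higher (median -0.03), the higher ones being POLD4 (0.52) and RNASEH2C (0.16). CCNE2, which encodes cyclin E2, a partner of CDK2 at the start of S phase, had the largest difference between lines in this list. It fell by 0.70 on the log2 scale in MDA-MB-231 (adjusted p = 4.76e-06) and rose by 0.37 in SUM159PT (adjusted p = 0.0437), a difference of 1.06 (adjusted p = 4.92e-05).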
